A study of Mus musculus with 12 samples.

Results

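Neuropeptides and the receptors of peptides were examined in hippocampus and cortex of mice that lack the BK channel. The 9 genes described here are Trh and Tac1, which encode neuropeptide precursors, Tacr1, Tacr3, Oxtr and Rxfp1, which encode receptors of known peptides, and Gpr83, Gpr50 and Gpr101, which encode receptors first described as orphans. They were chosen by name from the genes that the authors listed as different between BK KO and WT mice, so they were selected on the base means, fold changes and p-values of that same comparison. All 9 were found among the 652 genes listed for hippocampus and 0 among the 561 genes listed for cortex, where their values were not analysed here. The 2 lists hold 1017 genes together.

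Hippocampus and cortex were taken from 3 BK KO and 3 WT adult mice, and the messenger RNA of each sample was sequenced, which gave 12 libraries. The BK KO mice (kcnma1-/-) carry a frameshift deletion in exon 4 of Kcnma1, the gene of the pore-forming BK subunit, in every tissue, and the WT mice (kcnma1+/+) carry the intact gene. Both genotypes are on the C57BL/6 background, come from heterozygous parents, and no treatment is named. The methods give males of 3 months for the study's experiments in general, and for the sequenced mice only that they were adult. Each library is 1 tissue of 1 mouse, and every tissue holds many cell types. Levels are given in FPKM, sequenced fragments relative to the length of the transcript and the size of the library, which can be compared between genes of different length. The depth of the libraries is unknown. Only genes called different were listed, so each difference between BK KO and WT below is a description of chosen genes and was not tested.

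Neuropeptides are cut from larger precursor proteins, stored in dense-core vesicles and released from neurons, often beside a fast transmitter. They act on G protein-coupled receptors of other cells, at a distance and over longer times than synaptic transmitters do. In the hippocampus such peptides are made by subsets of neurons, among them inhibitory interneurons, and by fibers that arrive from other brain areas, whose precursor mRNA stays mostly in the distant cell body. TRH was first known from the hypothalamus, substance P and neurokinin A belong to the tachykinins, and oxytocin and relaxin-3 are made in small cell groups outside the hippocampus.

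Kcnma1 itself was listed in both tissues. In hippocampus it measured 11.3, 10.6 and 9.67 FPKM in WT libraries 1 to 3, against 2.54, 2.82 and 2.81 FPKM in BK KO libraries 1 to 3. In cortex the WT libraries held 11.98, 9.82 and 11.8 FPKM and the BK KO libraries 3.09, 2.97 and 2.76 FPKM. Every library labelled BK KO was thus far below every library labelled WT, and no library went against its label.

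A pair of hippocampus libraries stood apart for peptide genes. BK KO library 3 held 57.5 FPKM of Gh, the growth hormone of the anterior pituitary, against 0.120 and 0.184 FPKM in BK KO libraries 1 and 2, and Gh was listed at 0 in each WT library. Gh was the only gene listed of 14 pituitary markers. WT library 3 held Tac1 and Tacr1 at the level of the BK KO libraries, while WT libraries 1 and 2 did not. Over all 652 listed genes neither library was farther from its group than the others. The median distance of a library from the mean of the other libraries of its group, on log2(FPKM + 1), was 0.15 for WT library 3 and 0.15 for BK KO library 3, and between 0.16 and 0.19 for the other 4. Differences of the 9 genes that these libraries move are given without them too, as are the counts that rest on them, whereas summed levels of markers are given for each library.

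In hippocampus 8 of the 9 genes had a higher mean in BK KO mice and 1, Rxfp1, a lower one, against 272 of the 652 listed genes (41.7%) with a higher mean on log2(FPKM + 1). The 3 BK KO values lay wholly above the 3 WT values for 4 genes (Trh, Gpr83, Gpr50 and Gpr101) and wholly below them for 1 gene (Rxfp1). Among all listed hippocampus genes, 32.8% lay wholly above and 47.1% wholly below. For Tac1, Tacr1, Tacr3 and Oxtr the groups overlapped. Without WT library 3 the groups were separate for 8 of the 9 genes and for 87% of the listed genes, and without BK KO library 3 for 6 and for 84.8%. A difference of mean log2(FPKM + 1) above 0.58 was found for 5 genes, against 21.5% of the listed genes, and a difference of over 0.58 in the other direction for 1 gene, against 22.1%. Nothing is read from these shares, since the comparison itself chose the genes. In whole tissue a change in the number of cells of a type and a change in RNA per cell cannot be told apart, and this holds for every gene below.

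**Figure D1:**
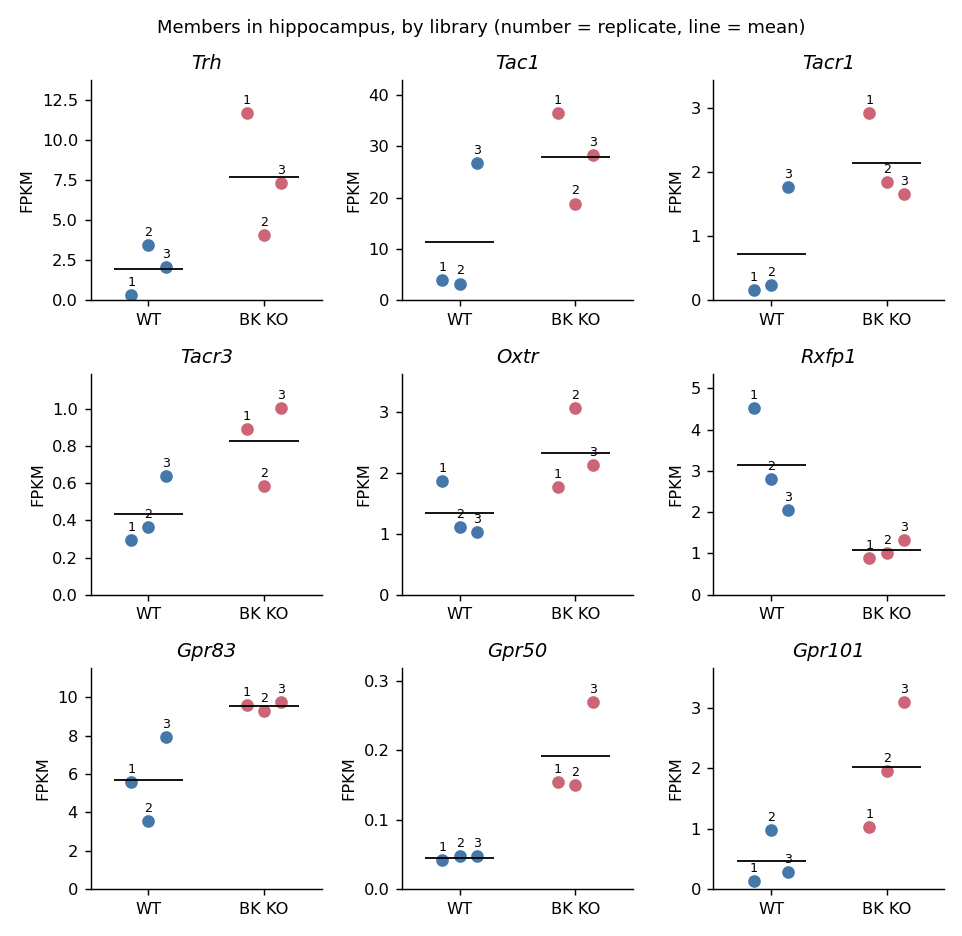
FPKM of the 9 genes in each hippocampus library, with WT in blue, BK KO in red, the replicate number above each point and the group mean (n = 3) as a line; each panel has its own axis from 0. The groups are separate for Trh, Rxfp1, Gpr83, Gpr50 and Gpr101, and WT library 3 lies among or near the BK KO libraries for Tac1 (26.6 FPKM) and Tacr1 (1.76 FPKM).

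Trh encodes the precursor of thyrotropin-releasing hormone, a tripeptide that drives the pituitary-thyroid axis and is also made by neurons outside the hypothalamus. A single transcript of Trh is annotated as coding in GENCODE release M21, and its 256 codons hold 5 copies of the peptide, each between paired basic residues where the precursor is cut. The 5 stretches are shown because the precursor's mRNA is what was measured. All lie in exon 3 on the minus strand of chromosome 6 of GRCm38, in the order chr6:92243088-92243111, chr6:92242992-92243015, chr6:92242857-92242880, chr6:92242803-92242826 and chr6:92242710-92242733, and the capitals mark the 9 bases of the tripeptide.
TRH copy 1: aaacgcCAGCATCCGggcaaaagg
TRH copy 2: aaacgaCAGCACCCTggccgacgt
TRH copy 3: aagcggCAGCACCCTggcaggcga
TRH copy 4: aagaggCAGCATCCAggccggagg
TRH copy 5: aaacgtCAGCATCCTggcaaaagg

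The level of Trh was 0.345, 3.43 and 2.09 FPKM in WT libraries 1 to 3, against 11.6, 4.09 and 7.33 FPKM in BK KO libraries 1 to 3. All BK KO libraries were above all WT libraries, with a narrow gap between WT library 2 and BK KO library 2, and WT library 1 was far below the rest. The means were 1.96 ± 1.55 FPKM (SD, n = 3) in the WT group, against 7.69 ± 3.79 FPKM (SD, n = 3) in the BK KO group, a 3.93-fold higher mean, and 6.30-fold without WT library 2. On log2(FPKM + 1), a scale that understates the change of low genes, the difference was 1.62 with a standard error of 0.49. The standard errors here and below come from limma, which draws the variance of each gene toward that of all listed genes, chosen by this same comparison. From the replicates of Trh alone the error was 0.64, and such an error was larger than the printed one for 8 of the 9 genes, all but Gpr50. The difference was between 1.13, without WT library 1, and 1.99, without WT library 2. It was 1.73 without WT library 3 and 1.60 without BK KO library 3, so it was about as large without the library that held Gh. The authors' base means, which count reads scaled to library size and not to transcript length, were 55.0 for WT and 225 for BK KO.

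Tac1 encodes the precursor of substance P and neurokinin A, peptides of pain pathways, of striatal projection neurons and of some interneurons. The stretch for substance P was found in 3 of the 4 coding transcripts of the gene, and that for neurokinin A in 2 of the 4. The FPKM are given per gene, so the transcripts were not told apart. Both stretches are on the plus strand of chromosome 6 of GRCm38, at chr6:7556726-7556773 in exon 3 and at chr6:7559101-7559139 in exon 6 of the transcript with 130 codons. Capitals mark the bases of each peptide, and the last 9 bases in lower case encode the glycine and the basic pair that follow it.
Substance P: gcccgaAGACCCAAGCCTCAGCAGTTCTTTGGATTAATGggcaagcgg
Neurokinin A: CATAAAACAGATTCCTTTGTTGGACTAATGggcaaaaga

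Tac1 measured 3.97, 3.29 and 26.6 FPKM in WT libraries 1 to 3, against 36.4, 18.9 and 28.2 FPKM in BK KO libraries 1 to 3. WT libraries 1 and 2 were low, whereas WT library 3 lay between BK KO libraries 2 and 3, so the groups overlapped through that library. The means were 11.3 ± 13.3 FPKM (SD, n = 3) and 27.8 ± 8.77 FPKM (SD, n = 3), and the WT SD was larger than the WT mean. The mean was 2.46-fold higher in BK KO mice with all libraries and 7.66-fold higher without WT library 3. On log2(FPKM + 1) the difference rose from 1.73 with a standard error of 0.69 (0.90 from its own replicates) to 2.59 without that library, and it was 1.25 without WT library 2 and 1.70 without BK KO library 3.

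Tacr1 encodes the NK1 receptor, which prefers substance P. Its level was 0.162, 0.233 and 1.76 FPKM in WT libraries 1 to 3, against 2.91, 1.85 and 1.65 FPKM in BK KO libraries 1 to 3. The receptor thus showed the same split as its ligand's precursor: WT libraries 1 and 2 were low, and WT library 3 was above BK KO library 3. The mean was 0.720 ± 0.906 FPKM (SD, n = 3) in the WT group, against 2.14 ± 0.679 FPKM (SD, n = 3) in the BK KO group, 2.97-fold higher, and 10.8-fold higher without WT library 3. The difference on log2(FPKM + 1) was 0.97 with a standard error of 0.35, and lay between 0.74, without WT library 1, and 1.37, without WT library 3, with each library left out. The fold was 2.14 without WT library 1 and 2.22 without WT library 2. The groups still overlapped without either of these libraries, and no longer did so without WT library 3 or without BK KO library 3.

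Tacr3 encodes the NK3 receptor, which prefers neurokinin B. Its level was 0.295, 0.366 and 0.639 FPKM in WT libraries 1 to 3, against 0.894, 0.585 and 1.01 FPKM in BK KO libraries 1 to 3. WT library 3 was again the highest of its group, and it exceeded BK KO library 2. The means were 0.433 ± 0.182 FPKM (SD, n = 3) and 0.829 ± 0.219 FPKM (SD, n = 3), a 1.91-fold higher mean in BK KO mice that became 2.51-fold without WT library 3 and 1.71-fold without BK KO library 3. The difference on log2(FPKM + 1), 0.35 with a standard error of 0.14, did not exceed 0.58, nor did it with any library left out.

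**Figure D2:**
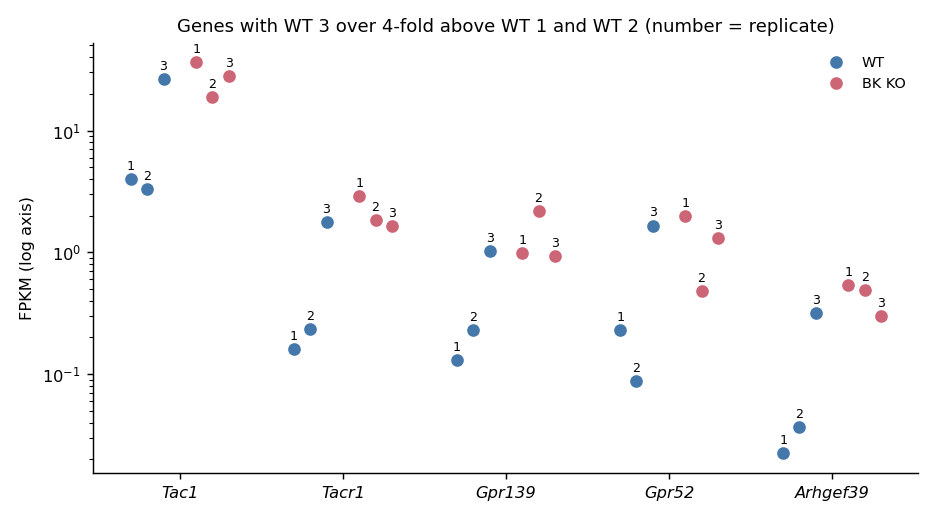
FPKM on a log axis of the 5 listed hippocampus genes in which WT library 3 was over 4-fold above both other WT libraries, WT in blue and BK KO in red, with the replicate number above each point. WT libraries 1 and 2 lie below all 3 BK KO libraries for each of the 5 genes, and WT library 3 lies within the BK KO range for Tac1, Tacr1, Gpr139, Gpr52 and Arhgef39.

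WT library 3 was over 4-fold above both other WT libraries in 5 of the 652 listed genes, a rule set after the values had been seen. They were Tac1, Tacr1, the orphan receptors Gpr139 and Gpr52, and Arhgef39, named because it met this rule. Gpr139 measured 0.131, 0.230 and 1.03 FPKM in WT libraries 1 to 3, against 0.995, 2.20 and 0.937 FPKM in BK KO libraries 1 to 3. Gpr52 measured 0.231, 0.0878 and 1.66 FPKM in WT libraries 1 to 3, against 1.98, 0.479 and 1.31 FPKM in BK KO libraries 1 to 3. In each of the 5 genes WT libraries 1 and 2 were below every BK KO library, as in 36.5% of all listed genes. Nothing is read from this, since the same comparison chose the genes. By the same rule 0 genes were found for WT library 1 and 3 for WT library 2, namely Arhgap36, Barhl2 and Zpld1, and in each of these 3 the other WT libraries were likewise below every BK KO library.

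The promoters of the precursors Trh and Tac1 and of the tachykinin receptors are shown, as those of a peptide family and its receptors and of the other precursor. All 4 carry the motif marked below, which those of Oxtr and Gpr50, not printed, lack. RefSeq promoters were matched by symbol for 8 of the 9 genes, and Rxfp1 had no entry. The 250 bases before the start are printed here, from GRCm38.p6, whereas the submitters' processing notes name mm9, so no position was carried over between builds. They are chr6:92244651-92244900 on the minus strand for Trh, chr6:7554811-7555060 on the plus strand for Tac1, chr6:82402225-82402474 on the plus strand for Tacr1 and chr3:134828757-134829006 on the plus strand for Tacr3. The capitals mark the motif TGACG, the core of the cAMP response element, which reads CGTCA where it is on the opposite strand.
Trh promoter: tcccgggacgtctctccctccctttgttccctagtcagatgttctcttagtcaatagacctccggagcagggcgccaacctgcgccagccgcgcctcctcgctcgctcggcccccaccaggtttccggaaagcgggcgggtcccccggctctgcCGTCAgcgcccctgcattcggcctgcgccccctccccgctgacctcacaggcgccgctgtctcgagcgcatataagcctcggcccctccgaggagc
Tac1 promoter: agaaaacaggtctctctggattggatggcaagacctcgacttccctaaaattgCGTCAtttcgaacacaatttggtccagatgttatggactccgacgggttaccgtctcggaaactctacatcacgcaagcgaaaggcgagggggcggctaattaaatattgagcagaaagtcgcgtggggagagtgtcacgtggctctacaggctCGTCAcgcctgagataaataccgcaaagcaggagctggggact
Tacr1 promoter: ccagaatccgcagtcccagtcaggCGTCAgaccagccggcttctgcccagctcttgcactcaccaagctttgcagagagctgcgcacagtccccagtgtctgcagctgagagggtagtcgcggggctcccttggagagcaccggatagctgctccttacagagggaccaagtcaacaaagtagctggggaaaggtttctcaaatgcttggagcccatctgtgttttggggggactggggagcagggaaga
Tacr3 promoter: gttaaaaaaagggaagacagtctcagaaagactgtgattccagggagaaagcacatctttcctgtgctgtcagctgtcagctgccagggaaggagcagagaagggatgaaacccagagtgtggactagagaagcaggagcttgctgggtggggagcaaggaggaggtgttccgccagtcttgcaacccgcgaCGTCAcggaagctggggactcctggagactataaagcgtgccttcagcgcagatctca

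The motif TGACG was in 6 of the 8 promoters, those of Trh, Tac1, Tacr1, Tacr3, Gpr83 and Gpr101, and in 17.8% of all 32851 RefSeq promoters over the same 250 bases. Among promoters with a share of G and C within that of the 8, from 51.2% to 68.8%, it was in 23.2%. The 7 matches began between 43 and 226 bases before the start, all on the opposite strand, and Tac1 had a pair of them. Of the other motifs searched on both strands, the full element TGACGTCA, which contains TGACG, was in 0 of the 8 and in 1.55% of all promoters. The AP-1 motif TGAGTCA was in 0 and 4.46%, and the EGR motif GCGTGGGCG in 0 and 0.536%. The E-box CACGTG was in those of Tac1 and Oxtr and in 6.02% of all, the TATA box TATAAA in that of Tacr3 and in 12.4%, and the CCAAT box in those of Tac1 and Gpr50 and in 33.8%. The GC box GGGCGG was in 5 and in 32.7%. Among promoters in the same range of G and C these shares were 46.9% for the GC box, 34.6% for the CCAAT box, 7.76% for the E-box, 5.14% for the TATA box, 3.83% for AP-1, 2.39% for the full element and 0.615% for EGR. The 8 motifs were chosen with matches in these promoters already seen, from a longer set that was looked at, and a match is a run of letters, not a bound site.

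Oxtr encodes the oxytocin receptor, which in the hippocampus is known from interneurons and from pyramidal cells of some fields. It measured 1.87, 1.103 and 1.03 FPKM in WT libraries 1 to 3, against 1.77, 3.07 and 2.12 FPKM in BK KO libraries 1 to 3. Here WT library 1, not 3, reached into the BK KO range, above BK KO library 1. The means were 1.34 ± 0.466 FPKM (SD, n = 3) and 2.32 ± 0.673 FPKM (SD, n = 3), a 1.74-fold higher mean in BK KO mice. The difference on log2(FPKM + 1) was 0.51 with a standard error of 0.20, and lay between 0.35 and 0.66 with each library left out in turn.

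Rxfp1, the receptor of relaxin, was the only one of the 9 genes that was lower in BK KO mice. Its level was 4.53, 2.80 and 2.06 FPKM in WT libraries 1 to 3, against 0.883, 1.01 and 1.34 FPKM in BK KO libraries 1 to 3. The groups were separate, and the WT libraries were spread more widely than the BK KO libraries. The mean was 3.13 ± 1.27 FPKM (SD, n = 3) in the WT group, against 1.07 ± 0.234 FPKM (SD, n = 3) in the BK KO group, 2.91-fold higher in WT. The difference on log2(FPKM + 1) was -0.96 with a standard error of 0.22, and lay between -0.72, without WT library 1, and -1.15, without WT library 3, with each library left out.

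Gpr83 was described as a receptor of the peptide PEN, which is cut from the proSAAS precursor. It measured 5.57, 3.56 and 7.95 FPKM in WT libraries 1 to 3, against 9.61, 9.28 and 9.77 FPKM in BK KO libraries 1 to 3. The BK KO values were almost equal, and WT library 3 was the closest to them. The mean was 5.69 ± 2.20 FPKM (SD, n = 3) in the WT group, against 9.55 ± 0.252 FPKM (SD, n = 3) in the BK KO group, 1.68-fold higher, and 2.09-fold higher without WT library 3. On log2(FPKM + 1) the difference was 0.71 with a standard error of 0.23, and 0.46 without WT library 2.

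Gpr101 is an orphan receptor of the hypothalamus and of other forebrain areas, on the X chromosome. The WT libraries held 0.138, 0.972 and 0.276 FPKM and the BK KO libraries 1.02, 1.96 and 3.10 FPKM. The groups did not overlap, but WT library 2 came close to BK KO library 1. The mean was 0.462 ± 0.447 FPKM (SD, n = 3) in the WT group, against 2.02 ± 1.04 FPKM (SD, n = 3) in the BK KO group, 4.39-fold higher, and 9.80-fold higher without WT library 2. It was highest in BK KO library 3, the library with Gh, and without it the mean was 3.22-fold higher and the difference on log2(FPKM + 1) fell from 1.03, with a standard error of 0.30, to 0.78.

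Gpr50, a relative of the melatonin receptors that does not bind melatonin, is also on the X chromosome and had the lowest level of the 9 genes. It measured 0.0411, 0.0476 and 0.0468 FPKM in WT libraries 1 to 3, against 0.155, 0.1502 and 0.270 FPKM in BK KO libraries 1 to 3. The groups were separate, with the highest value again in BK KO library 3. The mean was 4.24-fold higher in BK KO mice, and 3.37-fold higher without that library. The authors' base means were 3.40 for WT and 18.3 for BK KO, so few reads lie behind these levels, and on log2(FPKM + 1) the difference was 0.19 with a standard error of 0.097 (0.047 from its own replicates).

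**Figure D3:**
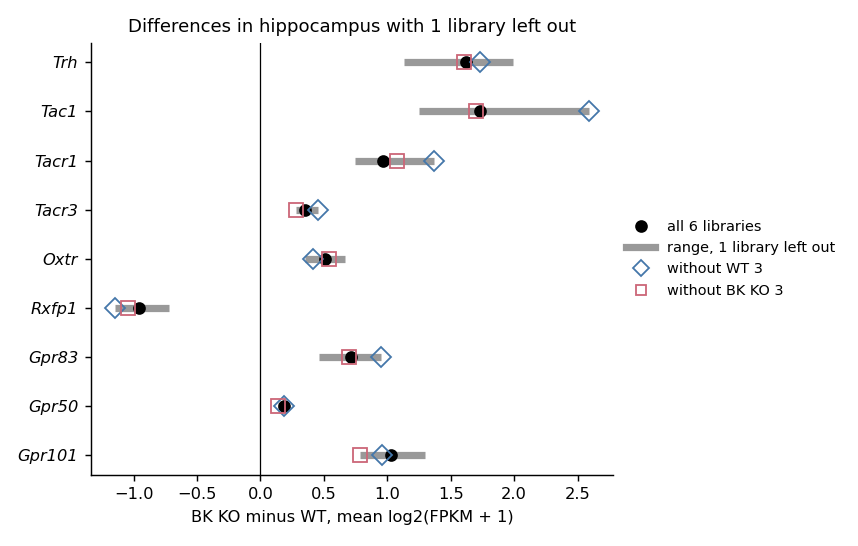
BK KO minus WT difference of mean log2(FPKM + 1) in hippocampus for each of the 9 genes, with all 6 libraries (black), the range with 1 library left out at a time (grey), and the values without WT library 3 (blue diamonds) and without BK KO library 3 (red squares). No range crosses 0, which was fixed in advance for the genes with separate groups, and that of Tac1 is the widest, from 1.25 to 2.59.

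Ordered by mean FPKM, the BK KO hippocampus held Tac1, Gpr83, Trh, Oxtr, Tacr1, Gpr101, Rxfp1, Tacr3 and Gpr50. In WT mice the order was Tac1, Gpr83, Rxfp1, Trh, Oxtr, Tacr1, Gpr101, Tacr3 and Gpr50, so that Rxfp1 stood lower in the order of the BK KO mice. Neighbours in the middle of either order, such as Oxtr, Tacr1 and Gpr101 in BK KO mice at 2.32, 2.14 and 2.02 FPKM, did not differ beyond their SDs. Tac1 in WT mice, with an SD above its mean, did not stand beyond its SD from Gpr83, and its first place there rested on WT library 3. Tac1 was below Gpr83 in WT libraries 1 and 2, and without WT library 3 the WT order was Gpr83, Rxfp1, Tac1, Trh, Oxtr, Gpr101, Tacr3, Tacr1 and Gpr50, with Gpr83 at 4.56, Rxfp1 at 3.67 and Tac1 at 3.63 FPKM. In BK KO mice Tac1, Gpr83 and Trh stayed the first 3 with each library left out.

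Among WT mice 8 of the 9 genes were spread more widely than the median listed gene, Gpr50 being the exception, and 6 of the 9 were without WT library 3. The highest WT value was 10.9 times the lowest for Tacr1, 9.94 times for Trh, 8.09 times for Tac1 and 7.06 times for Gpr101. Such a ratio above 4 was found in 28 of the 642 listed genes with no WT value at 0, which is 4.36%, and in 4 of the 9. These ratios rest on single libraries, as leaving out each WT library, an alternative chosen after the data were seen, showed. Without WT library 3 the ratio was 1.21 for Tac1 and 1.44 for Tacr1, and 2 of the 9 genes and 2.65% of the listed genes were above 4. Without WT library 1 the ratio of Trh was 1.64 and that of Gpr101 3.52, and 2 of the 9 and 3.10% of the listed genes were above 4. Without WT library 2 the ratio of Gpr101 was 2.00, and 3 of the 9 and 1.87% of the listed genes were above 4. The median ratio was 2.24 over the 9 genes and 1.501 over the listed genes. Among the BK KO libraries it was 1.76 over the 9 genes and 1.48 over the listed genes, and a ratio above 4 was found in 0 of the 9 and in 26 of the 639 listed genes with no BK KO value at 0, which is 4.07%. The WT ratio was larger than the BK KO ratio for 8 of the 9 genes, again all but Gpr50, and for 50.6% of the 631 listed genes that had both. Without WT library 3 this was so for 4 of the 9 (Trh, Rxfp1, Gpr83 and Gpr101) and for 30.9% of the listed genes. It was so for 5 of the 9 and 32% of the listed genes without WT library 1, and for 7 and 28.4% without WT library 2. A ratio over fewer libraries cannot be larger. The highest WT library was library 3 for Tac1, Tacr1, Tacr3 and Gpr83, library 2 for Trh, Gpr50 and Gpr101, and library 1 for Oxtr and Rxfp1. The genes thus did not share 1 high WT library.

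**Figure D4:**
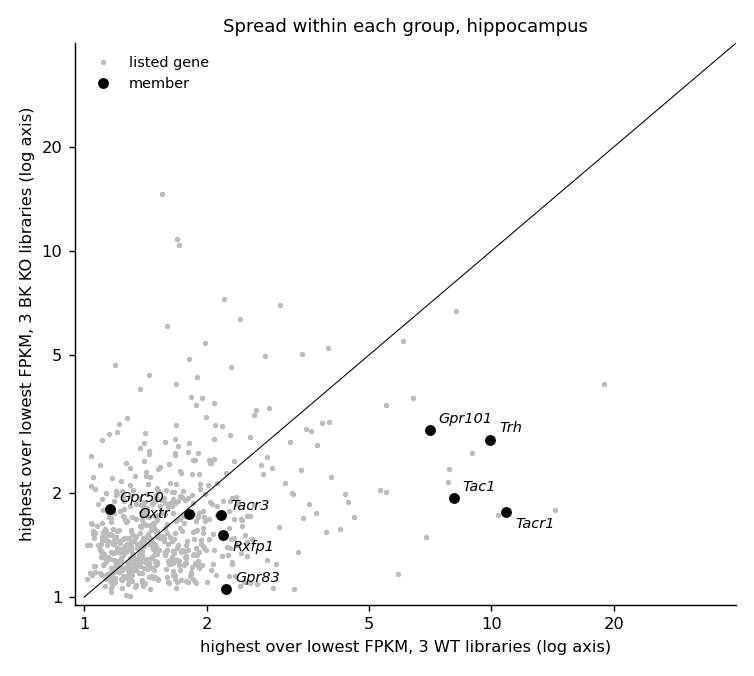
Highest over lowest FPKM among the 3 WT libraries and among the 3 BK KO libraries of hippocampus, both on log axes, for 630 listed genes (grey, with 1 more outside the axes) and the 9 genes (black, named). Tacr1, Trh, Tac1 and Gpr101 lie far to the right of the line of equal ratios, with WT ratios from 7.06 to 10.9.

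The genes with the most similar profile were found as the root mean square distance over the 6 hippocampus libraries of log2(FPKM + 1), each gene taken relative to its own WT mean. The nearest to Trh were Etnppl, at a distance of 0.41, and Strip2, at 0.49. For Tac1 the nearest, Slc10a4 and Kcna5, were both at 0.72. Such a distance grows with the size of a gene's changes, and Tac1 had the largest SD of the 9 genes on this scale, 1.11. For Tacr1 the nearest were Tbc1d8 at 0.20 and Cacng4 at 0.21, and Cacng4 was also the nearest to Gpr83 at 0.19, followed by Caln1 at 0.20. Cacng4, an auxiliary subunit of AMPA receptors, measured 8.49, 8.19 and 18.6 FPKM in WT libraries 1 to 3, against 20.4, 18.1 and 17.8 FPKM in BK KO libraries 1 to 3. It thus had the pattern of Tacr1, with WT library 3 within the BK KO range. The nearest to Oxtr were Rin3 at 0.10 and Plagl1 at 0.13, those to Tacr3 Fzd5 at 0.092 and Tmprss6 at 0.10, and those to Rxfp1 Col5a1 at 0.18 and Spag5 at 0.19. Sparc was the nearest to Gpr101 at 0.12, followed by Igfbp3 at 0.25, and Rgag1 and Gucy2c were the nearest to Gpr50 at 0.026 and 0.038. Distances are small for low genes on this scale whatever their pattern. Of these 18 nearest places 7 were kept without WT library 3, with none kept for Tacr1, Tacr3, Rxfp1 and Gpr83, and 9 were kept without BK KO library 3.

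Other peptide genes were taken from gene lists. Of 66 neuropeptide precursors 7 were listed in hippocampus, Trh, Tac1 and 5 more, of which Scg2, Nucb2, Adm and Gh were higher and Apln was lower in BK KO mice, all 5 with separate groups, as for 32.8% (above) and 47.1% (below) of all listed genes. Scg2, the secretogranin II of dense-core vesicles, measured 68.5, 54.4 and 71.1 FPKM in the WT libraries, against 118, 149 and 106 FPKM in the BK KO libraries. Apln, the precursor of apelin, measured 14.4, 6.39 and 15.1 FPKM in WT libraries 1 to 3, against 5.21, 5.76 and 4.08 FPKM in BK KO libraries 1 to 3. Of the 7 listed precursors 6 were thus higher in BK KO mice, against 41.7% of all listed genes, also without WT library 3 or BK KO library 3, while the other precursors of the list have no value here. The median difference on log2(FPKM + 1) of these 5 genes was 0.74, against -0.27 over all listed hippocampus genes and 0.71 over the 9, and without BK KO library 3, which held Gh, it was 0.59.

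Of 87 neuropeptide receptors 5 were listed in hippocampus, the 4 described above and Prokr2, a prokineticin receptor, with 0.231 ± 0.0861 FPKM (SD, n = 3) in the WT group, against 0.713 ± 0.274 FPKM (SD, n = 3) in the BK KO group. Of the 64 orphan receptors of the list 6 were listed, Gpr83, Gpr50 and Gpr101 with Gpr52, Gpr139 and Gpr151. The last 3 had a higher mean in BK KO mice, with overlapping groups. Without WT library 3 the groups were separate for 2 of these 3, as for 87% of all listed genes. Without BK KO library 3 they were separate for 0 of these 3, against 84.8% of all listed genes. Of 29 genes of peptide processing 4 were listed, Scg2 and Lnpep higher, and Dpp4 and Anpep lower. Lnpep, an aminopeptidase that cleaves oxytocin, measured 4.27, 4.33 and 1.76 FPKM in WT libraries 1 to 3, against 6.32, 6.995 and 6.996 FPKM in BK KO libraries 1 to 3. In the deposited annotation 21 listed hippocampus genes belong to neuroactive ligand-receptor interaction, 8 of the 9 genes (all but Gpr101) and 13 others, of which 8 were higher and 5 lower.

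In cortex, where 0 of the 9 genes were listed, the same lists gave Apln, Pdyn, Scg2 and Sct of the precursors and Crhr1, Ednra, Ednrb, Npy1r, Qrfpr and Sstr5 of the receptors. Of the 6 receptors 5 were lower in BK KO mice, as were 395 of the 561 listed cortex genes (70.4%) by mean log2(FPKM + 1). Whether the tissues differ was not tested, because different genes are listed. Apln, Scg2 and Gpr139 were among the genes listed in both. Gpr139 in cortex measured 0.0617, 0.240 and 0.237 FPKM in WT libraries 1 to 3, against 1.69, 3.69 and 0.308 FPKM in BK KO libraries 1 to 3. Here the WT libraries were all low, unlike WT library 3 of hippocampus. The BK KO groups lay wholly above the WT groups for 24.2% and wholly below for 56.3% of the listed cortex genes, and for 1 and 1 of the 4 precursors, 1 and 2 of the 6 receptors and 3 and 0 of the 3 orphan receptors of the list.

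**Figure D5:**
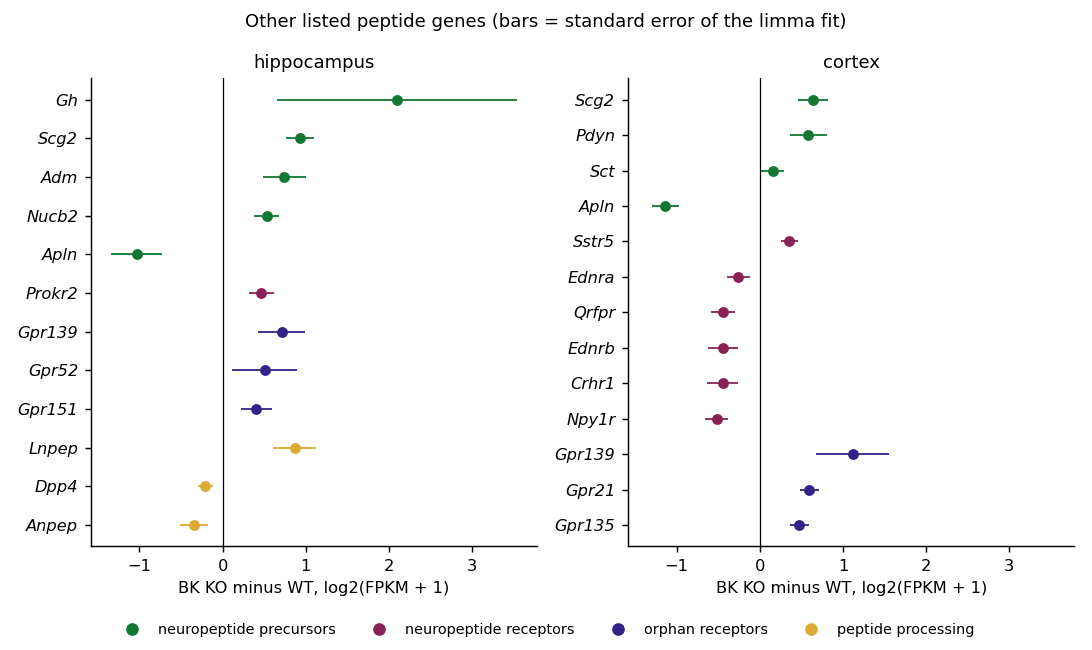
BK KO minus WT difference on log2(FPKM + 1), with the standard error of the limma fit as bars (n = 3 per group), for the other genes of the 4 peptide lists that were listed in hippocampus (left) and cortex (right). In hippocampus the precursors except Apln lie above 0, and Gh, with 57.5 FPKM in BK KO library 3 and under 1 FPKM in the other 5 libraries, has the widest bar.

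Markers of other brain areas and cell types were counted beside these results. Of 22 hypothalamus markers 3 were listed in hippocampus, and these were Trh, Gpr101 and Gpr50 themselves. Their summed level was 0.524, 4.45 and 2.42 FPKM in WT libraries 1 to 3, against 12.8, 6.20 and 10.7 FPKM in BK KO libraries 1 to 3, with Trh the most abundant. Of 17 striatum markers only Tac1 was listed, of 15 markers of thalamus and habenula only Gpr151, and of 15 choroid plexus markers none. Markers that are not listed have no value here, so their levels, at 0 or above, are unknown, and the part of tissue from other areas in the results was not tested.

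Of 23 interneuron markers 5 were listed in hippocampus, Tac1 and Tacr1 with Gad2, Reln and Nos1, and the last 3 were higher in BK KO mice with separate groups, against 32.8% of all listed genes. Gad2, an enzyme of GABA synthesis, measured 12.8, 14.7 and 16.4 FPKM in WT libraries 1 to 3, against 34.1, 37.5 and 29.8 FPKM in BK KO libraries 1 to 3. WT library 3, with 16.4 FPKM of Gad2, 5.02 FPKM of Reln and 3.93 FPKM of Nos1, was below every BK KO library for these 3 genes, unlike for Tac1 and Tacr1. The summed level of the 5 was 28.6, 28.8 and 53.8 FPKM in WT libraries 1 to 3, against 93.3, 82.6 and 77.4 FPKM in BK KO libraries 1 to 3, with Gad2 the most abundant in 4 libraries and Tac1 in WT library 3 and BK KO library 1. Of 16 markers of amygdala and olfactory areas 3 were listed, Trh and Lmo3 higher and Rspo1 lower, with Lmo3 at 8.56 ± 2.15 FPKM (SD, n = 3) in the WT group, against 15.1 ± 1.09 FPKM (SD, n = 3) in the BK KO group. Their summed level was 18.0, 19.8 and 18.0 FPKM in WT libraries 1 to 3, against 29.3, 22.4 and 25.2 FPKM in BK KO libraries 1 to 3.

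Neuron markers of hippocampus and cortex were listed too. Of 19 hippocampal neuron markers Wfs1 and Nov were listed, both higher in BK KO mice, with a summed level of 86.1, 62.5 and 48.1 FPKM in WT libraries 1 to 3, against 108, 176 and 136 FPKM in the BK KO libraries. Of the 18 cortical neuron markers of the list 6 were listed, of which Rorb, Fezf2, Lamp5 and Rspo1 were lower and Bcl11b and Nxph4 higher, and some of these are also expressed in hippocampus. Their summed level was 101.1, 69.8 and 100.5 FPKM in WT libraries 1 to 3, against 81.2, 58.1 and 55.8 FPKM in BK KO libraries 1 to 3, with Lamp5 the most abundant. The part of interneurons, of amygdala or olfactory tissue and of these neurons in the levels of the 9 genes was not tested.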

How the data were processed

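The authors compared BK KO with WT mice within each tissue (DESeq 1.10.1 and DESeq2 are named) and deposited those genes whose nominal p-value was below 0.05 and whose log2 fold change exceeded 0.58 in size. The aligner and read counter are not given in the sources used here, and the submitters' notes name mm9. The deposited fold change, log2 fold change and p-value columns hold the authors' own results and were not used, other than to check these limits. The deposited values per library were taken as FPKM, which the authors do not name, since base mean over value rose with GENCODE transcript length (Spearman correlation across genes, which are not independent replicates, 0.601 to 0.648 in the 4 groups). A base mean, as the authors deposited it, is the normalized signal of a group, in reads divided by size factors. All per-library columns were matched to samples, and 0 were not.

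Differences and standard errors come from limma 3.58.1 in R 4.3.3 on log2(FPKM + 1), fitted over all listed genes of a tissue and tested on simulated data. No p-value was computed. Other steps used Python 3.11.15, pandas 2.3.3 and matplotlib 3.10.9. The genes and lists were chosen with earlier results of these data known. Named genes are the 9, Kcnma1, the listed genes of 13 lists and, for each of the 9, the 2 nearest profiles. Genes in which a WT hippocampus library was over 4-fold above both other WT libraries are named too. Some genes of the lists are not reported here, and list sizes, counts, medians and sums leave them out. Alternatives were a pseudocount of 0.1, the ratio of mean FPKM and leaving out each library.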

Additional observations from a re-analysis of the deposited data

How the results depend on the processing

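The count of 8 genes with a higher mean in BK KO hippocampus was 8 under every alternative run, namely a pseudocount of 0.1 FPKM, the log2 ratio of mean FPKM and leaving out each library. All 72 differences of single genes kept their sign. For the 5 genes with separate groups no alternative could reverse it, and the comparison itself chose all 9 genes. Nothing is therefore read from the kept signs or from the steady count of 8. Of the 72, 11 moved by more than 1 SD of the replicates, 5 with the pseudocount of 0.1 and 6 with the ratio of means. With a library left out 0 did so, which was fixed in advance. Leaving out 1 of 3 libraries cannot move a difference by 1 SD of these replicates, so nothing is read from it. The count of genes with groups that do not overlap, 5 of 9, lay between 5 and 8 with each library left out. It was 8 without WT library 3, where 87% of the listed genes were separate, and the overlap of Tac1, Tacr1 and Tacr3 was then gone. Fewer libraries make overlap less likely by construction. The count beyond 0.58 on the log2 scale, 6, lay between 5 and 7 with each library left out and was 9 with a pseudocount of 0.1, which added Tacr3, Oxtr and Gpr50, where 86.5% of the listed genes were beyond it. The count of genes with a WT ratio above 4, which was 4, was 2 without WT library 1, 3 without WT library 2 and 2 without WT library 3 (3.10%, 1.87% and 2.65% of the listed genes), an alternative added after the data were seen. No paired analysis was possible because BK KO and WT libraries with the same number are different mice, and no source names them as pairs. The alternatives planned for cortex and for a difference between tissues were not run, as 0 of the 9 genes are listed in cortex. The depth of the libraries is unknown, and few reads lie behind the levels of Gpr50, with base means of 3.40 for WT and 18.3 for BK KO.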
